A study of Mus musculus with 24 samples.

Results

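Csmd1, Csmd2 and Csmd3 are the 3 mouse genes of the CUB and sushi multiple domain family, and their contact with lamin A/C, LAP2alpha and lamin B1 was followed in 12 ChIP-seq libraries of dermal fibroblasts. The members were found by symbol in an mm9 annotation, 3 of 22208 protein-coding genes, and were chosen with their coverage by called regions known, so the coverage values are a description and carry no test. LAP2alpha is a product of Tmpo that stays in the nuclear interior and binds lamin A/C there. KO cells were an immortalized murine dermal fibroblast line of genotype Lap2alpha -/-, in which exon 4 of Tmpo is deleted and LAP2alpha alone among the LAP2 isoforms is lost, and WT cells were the matching Lap2alpha +/+ line. Lamin A/C was precipitated from KO and WT cells with antibody N18, directed against the N terminus, and with antibody 3A6, which detects the C-terminal Ig fold. LAP2alpha (antibody 8C10-1H11) and lamin B1 were precipitated from WT cells alone. Each ChIP was done on chromatin sonicated for 30 or for 12 cycles, which gave 4 KO and 8 WT libraries with 1 library in every group. No spread between replicates exists, and the other 12 of the 24 samples, inputs and histone marks, are not analysed here.

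CSMD proteins are very large membrane proteins whose extracellular part is a long row of CUB and sushi repeats, the repeats that complement regulators also use. The genes are known mainly from the nervous system, where CSMD1 has been described as a complement inhibitor and CSMD3 as a gene acting in dendrite growth. Genes of this length that are silent in a tissue commonly lie against the nuclear lamina, the meshwork of lamins under the nuclear envelope, in lamina-associated domains. Lamin B1 marks that layer, whereas lamin A/C is found both there and in the nuclear interior.

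The 3 genes differed widely in size, composition and surroundings, measures that played no part in choosing them. Csmd1 (ENSMUSG00000060924.7) lies on the minus strand of chromosome 8 at chr8:15892537-17535586 of mm9 and spans 1643.05 kb, the ninth longest of the 22208 genes. Csmd2 (ENSMUSG00000028804.9) lies on the plus strand of chromosome 4 at chr4:127665101-128244903 and spans 579.803 kb, and the small gene Hmgb4 lies inside it. Csmd3 (ENSMUSG00000022311.8) lies on the minus strand of chromosome 15 at chr15:47412183-48623609 and spans 1211.43 kb. The transcripts richest in exons have 72, 68 and 71 of them. Those exons fill no more than 0.651% of Csmd1, 2.24% of Csmd2 and 1.07% of Csmd3. Nearly all of what the libraries showed in these genes was therefore intron. The G+C content was 40.3% in Csmd1, 48.0% in Csmd2 and 35.2% in Csmd3, against 41.8% over the genome. In windows of 50 kb the ranges did not overlap, at 38.5% to 42.6% along Csmd1 (33 windows), 46.4% to 49.1% along Csmd2 (12 windows) and 32.2% to 36.6% along Csmd3 (25 windows). Among the 200 genes of at least 500 kb, Csmd2 ranked 3 and Csmd3 ranked 199 from the highest G+C content down, and Csmd1 ranked 89. Within 2 Mb, 33 other protein-coding genes surrounded Csmd1, 87 surrounded Csmd2 and 2 surrounded Csmd3.

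The positions at which an EDD peak ended inside a gene are the places where the gene was divided between covered and uncovered chromatin, and the 5 found in the 12 libraries are shown with 60 bases on each side. The caller works in bins of 11 kb, so each position is known to about 1 bin and the bases mark the reported border and no binding site. All lines are plus-strand sequence of mm9 read 5′ to 3′, which is antisense to Csmd1 and Csmd3, with the 60 bases inside the peak in capitals. They come from chr8:16939941-16940060 (intron 3 of Csmd1), chr4:128105941-128106060 (intron 24 of Csmd2), chr4:128204941-128205060 (intron 52 of Csmd2), chr4:128215941-128216060 (intron 53 of Csmd2) and chr15:47442941-47443060 (intron 63 of Csmd3), in the order given.
Csmd1, 3A6 WT, 30 cycles: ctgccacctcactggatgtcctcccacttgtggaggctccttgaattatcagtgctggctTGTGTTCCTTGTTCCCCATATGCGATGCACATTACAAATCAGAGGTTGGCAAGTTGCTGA
Csmd2, 3A6 WT, 30 cycles: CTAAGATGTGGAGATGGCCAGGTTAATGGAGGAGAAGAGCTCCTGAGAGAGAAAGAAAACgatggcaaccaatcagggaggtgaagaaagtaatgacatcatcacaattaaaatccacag
Csmd2, N18 WT, 12 cycles: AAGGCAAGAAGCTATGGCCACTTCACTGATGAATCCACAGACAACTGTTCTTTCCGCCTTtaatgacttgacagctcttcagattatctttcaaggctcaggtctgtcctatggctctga
Csmd2, 3A6 KO, 12 cycles: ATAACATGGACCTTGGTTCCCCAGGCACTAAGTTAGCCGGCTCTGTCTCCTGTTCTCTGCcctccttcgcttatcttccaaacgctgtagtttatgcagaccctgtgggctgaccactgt
Csmd3, lamin B1 WT, 12 cycles: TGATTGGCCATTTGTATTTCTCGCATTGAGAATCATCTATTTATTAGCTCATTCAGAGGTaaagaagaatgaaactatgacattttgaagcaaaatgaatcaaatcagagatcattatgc

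The stretches that lay in SICER islands of the most libraries are shown for the genes where several libraries shared one, as the 200 bases at their centre. In Csmd1 this was a stretch of 3 kb, chr8:17050001-17053000, in islands of 11 of the 12 libraries, all but N18 KO at 12 cycles. In Csmd3 it was a stretch of 16 kb, chr15:47847001-47863000, in islands of 6 libraries. No capitals are used because neither centre holds a CG pair, and both are intronic.
Csmd1, chr8:17051401-17051600: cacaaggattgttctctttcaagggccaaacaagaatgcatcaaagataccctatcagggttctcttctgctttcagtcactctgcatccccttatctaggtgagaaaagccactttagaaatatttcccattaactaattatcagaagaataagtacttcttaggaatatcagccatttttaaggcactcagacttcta
Csmd3, chr15:47854901-47855100: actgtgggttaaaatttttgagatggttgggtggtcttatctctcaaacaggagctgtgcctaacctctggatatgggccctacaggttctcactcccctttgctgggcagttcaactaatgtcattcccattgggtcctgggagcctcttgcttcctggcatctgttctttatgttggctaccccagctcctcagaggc

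Across the 12 libraries the authors' EDD peaks, which are broad domains, numbered 194 to 370 and covered 9.04% to 36.2% of the chromosomes, and their SICER islands, which are much smaller enriched regions, numbered 4183 to 9159 and held 3989494 to 13601739 reads per library. The lists hold only called regions, so a gene listed at 0 had no region past the callers' thresholds and may still have been in contact. The read density inside islands was 21.1 to 49.6 reads per kb, lowest in the lamin A/C and LAP2alpha libraries of 12 cycles. For lamin A/C, KO was sequenced in the same lane as WT at either sonication, and lamin B1 at 30 cycles in the same lane as at 12. Lamin A/C and LAP2alpha libraries of 30 cycles came from other flow cells than those of 12 cycles, so for these antibodies the effects of sonication and of flow cell cannot be told apart. Lamin A/C, LAP2alpha and lamin B1 shared no flow cell, so differences between these proteins cannot be told apart from flow cell either. Depth differed too: at 12 cycles lamin B1 held 9834885 island reads, and lamin A/C and LAP2alpha held 3989494 to 5520180 per library. Neither the deletion of exon 4 nor the fibroblast identity of the cells could be checked, because region lists hold no transcript levels.

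The EDD peaks placed the 3 genes in different company. Csmd1 was covered by at least 50% in 7 of 12 libraries, both lamin B1 libraries and none of LAP2alpha among them. Csmd2 was covered in 10 libraries, all 8 of lamin A/C and both of LAP2alpha, and in neither of lamin B1. Csmd3 was covered in 2 libraries, lamin B1 at 30 cycles and 3A6 WT at 30 cycles. Coverage was close to all or nothing: of the 36 values, 16 were 100% and 15 were 0. The share of all genes covered by at least 50% was 28.5% in N18 KO and 5.89% in N18 WT at 30 cycles, 23.1% in N18 KO and 27.4% in N18 WT at 12 cycles, 12.6% in 3A6 KO and 9.4% in 3A6 WT at 30 cycles, and 10.7% in 3A6 KO and 21.1% in 3A6 WT at 12 cycles. For LAP2alpha it was 32.3% at 30 and 35.9% at 12 cycles, and for lamin B1 16.8% at 30 and 7.78% at 12 cycles. The same combination of covered and uncovered libraries was held by 11 genes for Csmd1 (0.0495% of all genes), by 5 for Csmd2 (0.0225%) and by 372 for Csmd3 (1.68%), the member itself counted each time.

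**Figure D1:**
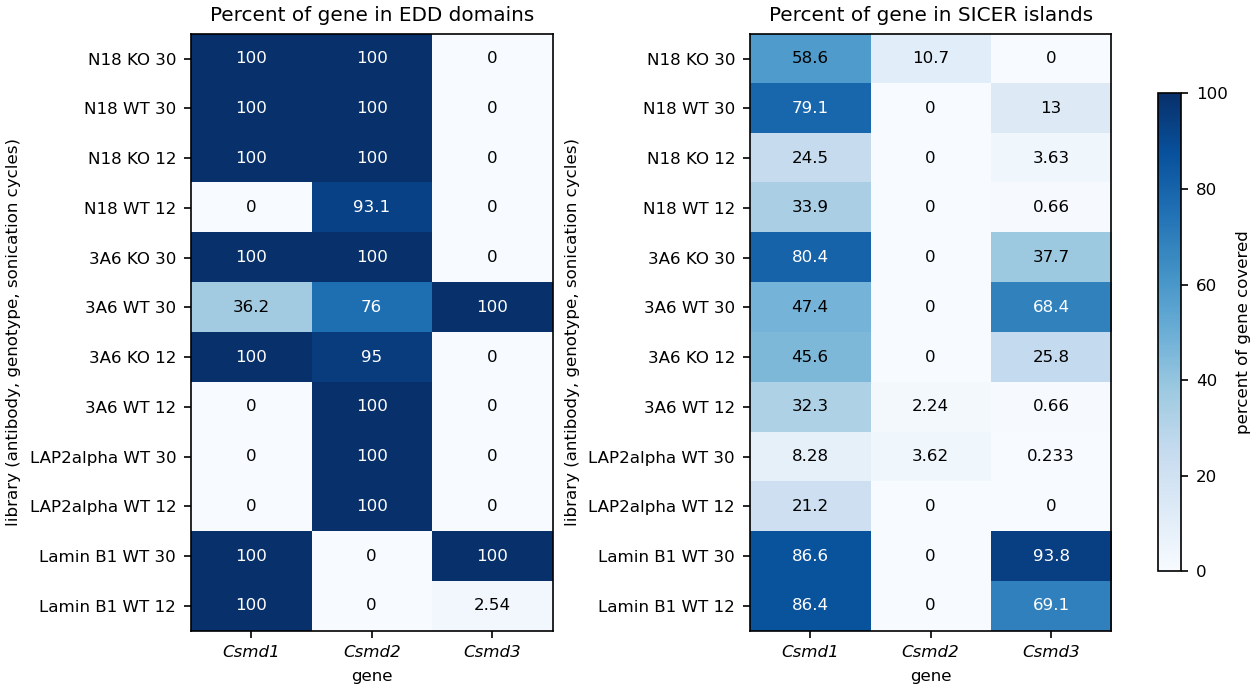
Percent of each Csmd gene inside EDD peaks (left) and inside SICER islands (right) in the 12 libraries, 1 library per row, with the value printed in each cell and the colour scale running over 0 to 100%. Csmd2 was covered by EDD peaks in all lamin A/C and LAP2alpha libraries with islands in no more than 10.7% of its length, and Csmd1 held islands in every library.

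Csmd1 coverage by EDD peaks separated KO from WT at 12 cycles with both lamin A/C antibodies. With N18 at 12 cycles Csmd1 was 100% covered in KO cells and 0% covered in WT cells. With 3A6 at 12 cycles it was likewise 100% covered in KO cells and 0% covered in WT cells. With 3A6 at 30 cycles it was 100% covered in KO cells and 36.2% covered in WT cells. With N18 at 30 cycles it was 100% covered in both genotypes. All 4 KO libraries thus held the whole gene, and the 4 WT lamin A/C libraries held all, part or none of it.

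The peaks that held Csmd1 also differed in extent. In KO cells the peak measured 10.9 Mb with N18 at 30 cycles, 10.8 Mb with N18 at 12 cycles, 11.1 Mb with 3A6 at 30 cycles and 4.75 Mb with 3A6 at 12 cycles, and it held 81, 82, 83 and 26 protein-coding genes by at least 50%. In WT cells the N18 peak at 30 cycles measured 3.44 Mb and held Csmd1 as its sole gene, and although so poor in genes it was the second longest of the 281 peaks in that library. Lamin B1 peaks over Csmd1 measured 3.42 Mb at 30 and 3.30 Mb at 12 cycles, and again Csmd1 was the sole gene. The lower edge of the WT N18 peak at 30 cycles (15158001) lay 11 kb, or 1 bin, from that of the lamin B1 peak at 30 cycles (15169001), and its upper edge (18601000) lay 11 kb from the lamin B1 edge (18590000). The WT 3A6 peak at 30 cycles ended at that same position, 18590000, but covered no more than the 595.586 kb from the start site into intron 3 and ranked 206 of 363 by EDD score.

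Where the gene itself was not covered, WT peaks of 12 cycles stopped beside its 3′ end. The nearest peak ended at 15873000 both with 3A6 in WT cells and with LAP2alpha, 19.5 kb from the gene, and at 15708000 with N18 in WT cells, 185 kb from it. These peaks reached away from Csmd1 into the gene-bearing side. The neighbours on that side are Myom2, which codes for a protein of the sarcomere M band, 759 kb away, and BB014433, 846 kb away. Both were 100% covered in the 4 KO libraries and in N18 WT, 3A6 WT and LAP2alpha at 12 cycles, and 0% covered in the other 5 WT libraries. Those 5 were N18, 3A6 and LAP2alpha at 30 cycles and both of lamin B1, and all but LAP2alpha at 30 cycles covered Csmd1 in whole or in part. Within WT cells Csmd1 and Myom2 were therefore never inside a peak of the same library. On the other side lie Mcph1, a gene of chromosome condensation and brain size, 1060 kb away, and Angpt2, which codes for a ligand of the endothelial receptor Tie2, 1155 kb away. Both were 100% covered in all 4 KO libraries, and in the 8 WT libraries the coverage was 0 for Angpt2 and at most 2.82% for Mcph1.

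**Figure D2:**
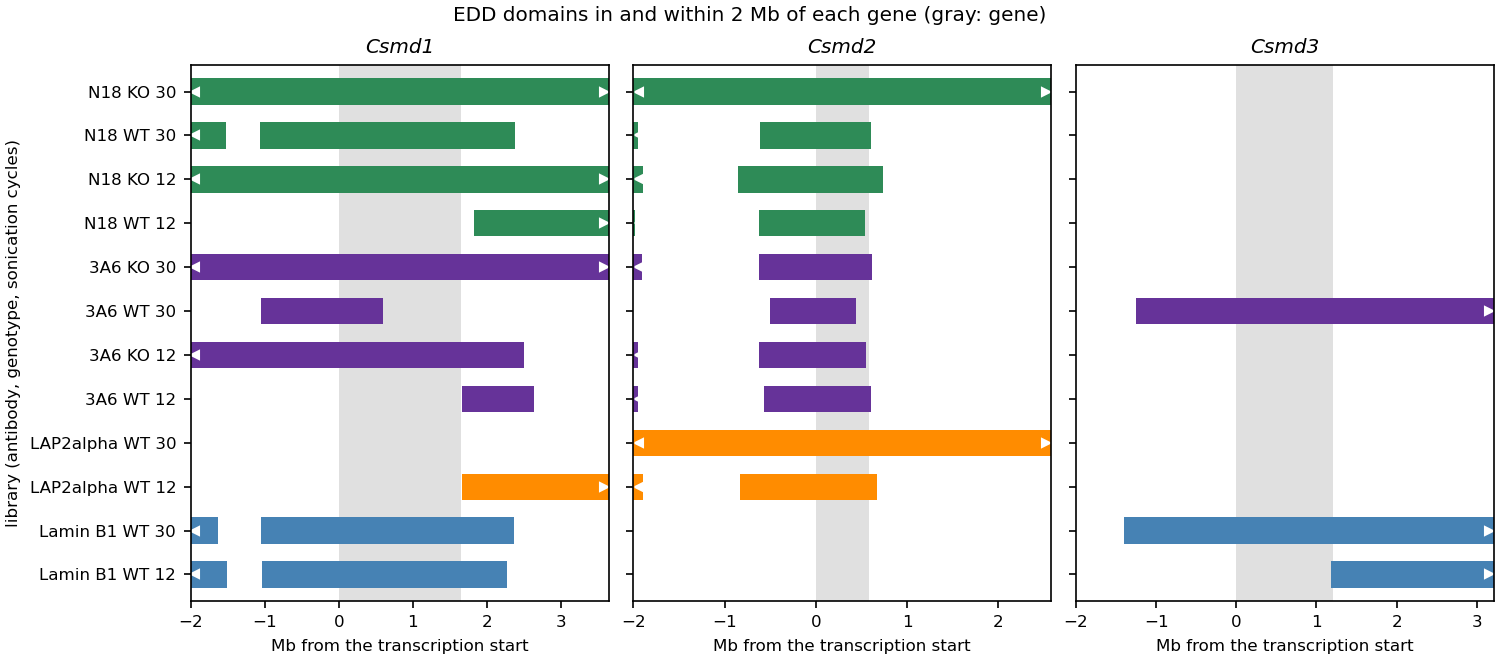
EDD peaks in and within 2 Mb of each Csmd gene, drawn against distance from the transcription start in Mb along the direction of transcription, with the gene in gray, 1 library per row and white arrowheads where a peak runs past the window. Peaks over Csmd1 ran far past the gene in KO cells, filled a block of 3.30 to 3.44 Mb in N18 WT at 30 cycles and in lamin B1, and lay outside its 3′ end in the lamin A/C WT and LAP2alpha libraries of 12 cycles.

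SICER islands resolved what the broad peaks joined. Csmd1 held islands in 12 of 12 libraries. Lamin B1 islands filled 86.6% of the gene at 30 and 86.4% at 12 cycles, the highest values, and LAP2alpha islands filled 8.28% at 30 and 21.2% at 12 cycles, the lowest. Lamin A/C lay between them. With N18 at 30 cycles islands filled 58.6% of Csmd1 in KO cells and 79.1% in WT cells. With N18 at 12 cycles they filled 24.5% in KO cells and 33.9% in WT cells. With 3A6 at 30 cycles they filled 80.4% in KO cells and 47.4% in WT cells. With 3A6 at 12 cycles they filled 45.6% in KO cells and 32.3% in WT cells. The KO value was the lower one at both sonications with N18 and the higher one at both sonications with 3A6. The island content therefore did not follow the EDD call, since N18 at 12 cycles had fewer islands in KO cells, where the whole gene lay in a peak, than in WT cells, where none of it did.

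Most of the island length of Csmd1 lay within islands of lamin B1. Of the island length in the gene, 93.0% in 3A6 KO and 96.7% in 3A6 WT at 30 cycles, and 93.5% in N18 KO and 95.2% in N18 WT at 30 cycles, was shared with lamin B1 at 30 cycles. At 12 cycles it was 87.2% in N18 KO and 94.8% in N18 WT, and 92.3% in 3A6 KO and 94.7% in 3A6 WT. Lamin B1 islands filled 86.6% of the gene at 30 cycles, against which these shares are to be read, and the share of N18 KO at 12 cycles lay nearest to it. Whether any share exceeded what placement alone would give was not tested. The sharing was not particular to lamin A/C, since for LAP2alpha it was 97.8% at 30 and 96.0% at 12 cycles. In the other direction 86.5% of the lamin B1 island length at 30 cycles was shared with 3A6 KO and 52.8% with 3A6 WT. Of the 1-kb windows of Csmd1 5.96% lay in islands of no library, and the 86.6% is taken over these windows too. Island reads in the gene numbered 64515 in 3A6 KO and 29991 in 3A6 WT at 30 cycles and 15327 in 3A6 KO and 10955 in 3A6 WT at 12 cycles, whereas with N18 they numbered 46324 in KO and 50938 in WT at 30 cycles and 8998 in KO and 11563 in WT at 12 cycles. These counts are not divided by depth. The density within the islands was 48.2 reads per kb in 3A6 KO and 38.5 in 3A6 WT at 30 cycles and 19.6 in 3A6 KO and 20.7 in 3A6 WT at 12 cycles. With N18 it was 46.7 in KO and 39.1 in WT at 30 cycles and 19.7 in KO and 20.4 in WT at 12 cycles. At 30 cycles the density was thus the higher one in KO with both antibodies, although with N18 the read count was the lower one. This was no peculiarity of Csmd1. Over all islands of the 30-cycle libraries the density was 49.0 reads per kb in 3A6 KO and 38.4 in 3A6 WT. For N18 it was 49.6 in KO and 39.5 in WT.

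Chromosome 8 as a whole moved with Csmd1 in part. EDD peaks covered 41.4% of the chromosome in N18 KO and 22.8% in N18 WT at 12 cycles, and 28.9% in 3A6 KO and 23.8% in 3A6 WT at 12 cycles. At 30 cycles they covered 32.1% in N18 KO and 18.6% in N18 WT, and 44.9% in 3A6 KO and 21.2% in 3A6 WT. Coverage of the chromosome by peaks was thus the higher in KO cells in every pair. Islands at 30 cycles covered 41.3% of it in N18 KO and 35.3% in N18 WT, and 45.9% in 3A6 KO and 27.1% in 3A6 WT. At 12 cycles islands covered 37.1% in N18 KO and 36.4% in N18 WT, and 28.2% in 3A6 KO and 35.0% in 3A6 WT. The islands of Csmd1 went the same way with 3A6 at 30 cycles alone, and the other way in the remaining pairs. The part of the chromosome in the values of Csmd1 was not tested.

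**Figure D3:**
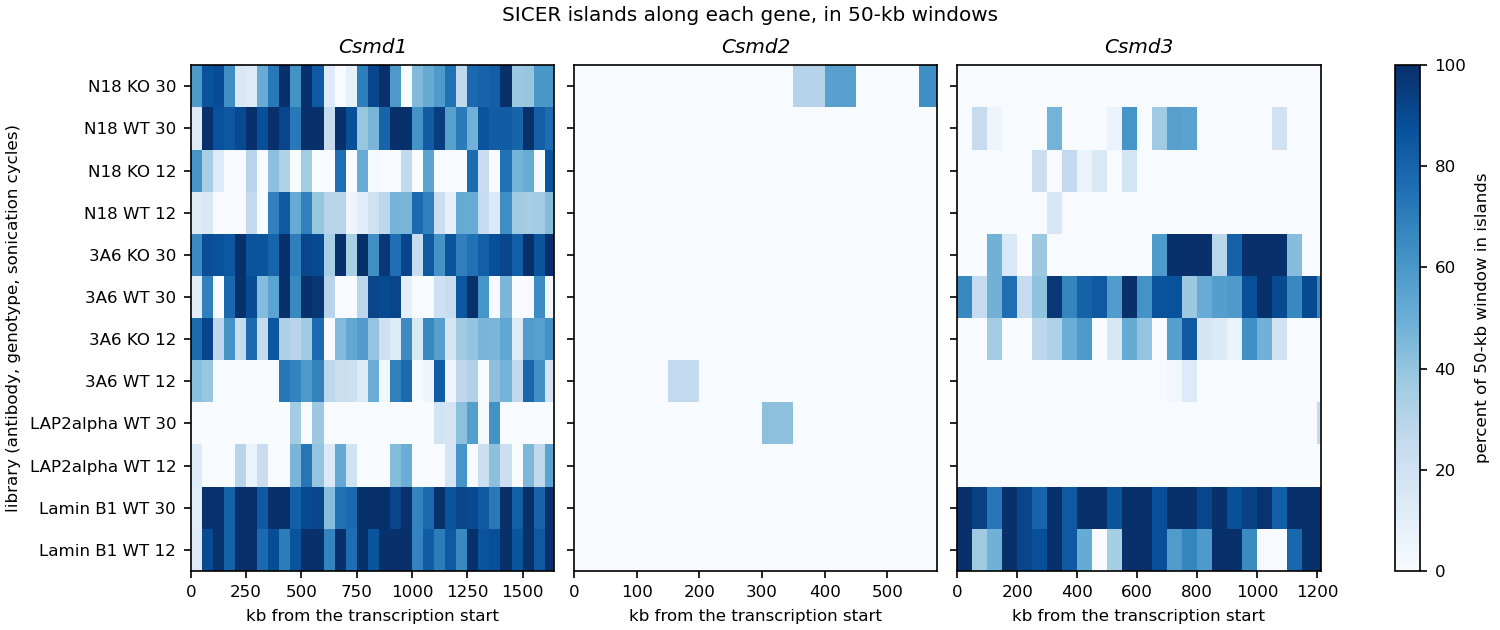
Percent of each 50-kb window inside SICER islands along Csmd1, Csmd2 and Csmd3, against distance from the transcription start in kb, with 1 library per row. Islands lay along Csmd1 in every library and along Csmd3 mainly with lamin B1 and with 3A6 at 30 cycles, whereas Csmd2 held islands in 3 libraries, never in the same window.

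Csmd2 lay in EDD peaks of lamin A/C and LAP2alpha in both genotypes and at both sonications. With N18 at 30 cycles Csmd2 was 100% covered in KO and in WT cells. With N18 at 12 cycles it was 100% covered in KO cells and 93.1% covered in WT cells. With 3A6 at 30 cycles it was 100% covered in KO cells and 76.0% covered in WT cells, and with 3A6 at 12 cycles 95.0% covered in KO cells and 100% covered in WT cells. The value of 3A6 WT at 30 cycles rested on a low-scoring peak and on the span chosen, since it was 0 among peaks scoring above the library median and 19.6% in the coding span. LAP2alpha peaks covered 100% of it at 30 and at 12 cycles. Lamin B1 peaks covered none of it, and the nearest one lay 12.4 Mb away at 30 and 15.1 Mb away at 12 cycles. Csmd2 was the one member that LAP2alpha peaks covered and the one member that lamin B1 peaks left out at both sonications. In 2 of these libraries the whole chromosome was nearly free of peaks. LAP2alpha peaks at 30 cycles covered 0% of chromosome 8 and 0.244% of chromosome 15, beside 21.2% and 15.1% at 12 cycles. Lamin B1 peaks at 12 cycles covered 0.735% of chromosome 4, beside 24.5% at 30 cycles.

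In most libraries Csmd2 sat at the end of a peak little longer than 1 Mb. The peak measured 0.946 to 1.60 Mb in 8 of the 10 libraries, 20.7 Mb in N18 KO at 30 cycles, where it held 360 genes, and 32.6 Mb in LAP2alpha at 30 cycles, where it held 518 genes. Its lower edge was the same position, 127039001, in 3A6 KO at 30 cycles, N18 WT at 12 cycles and 3A6 KO at 12 cycles. The upper edge fell inside the gene in 3 libraries, 440.9 kb from the start site in 3A6 WT at 30 cycles (intron 24), 539.9 kb from it in N18 WT at 12 cycles (intron 52) and 550.9 kb from it in 3A6 KO at 12 cycles (intron 53). The pair nearest each other, in KO cells with 3A6 and in WT cells with N18, differed by 11 kb, which is 1 bin of the caller, and the peak of 3A6 WT at 30 cycles ranked 303 of 363 by score. At each of the 3 edges the G+C content differed little between the covered and the uncovered side, at 47.9% against 48.1%, 48.2% and 48.6%.

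Islands were almost missing from Csmd2. They filled 10.7% of it in N18 KO at 30 cycles (3 islands, 3142 reads), 2.24% in 3A6 WT at 12 cycles (1 island, 256 reads) and 3.62% in LAP2alpha at 30 cycles (1 island, 677 reads), and the gene was listed at 0 in the other 9 libraries. Chromosome 4 as a whole was poor in islands, at 0.307% to 5.49% of its length per library, against 3.68% to 45.9% for chromosome 8 and 8.17% to 33.9% for chromosome 15. Coverage by a peak without any island was common among genes of any length. Among all genes covered by at least 50% the share with no island was 58.5% to 83.7% per library. Csmd2 ranks 144 by length, so most of those genes are shorter. Of the 197 other genes of at least 500 kb, covered or not, 96 to 133 had no island per library. The share among covered genes of that length was not computed. Whether Csmd2 was unusual among them was not tested. The gene next to its start, CK137956, lies 16.9 kb away and was 100% covered in the same 10 libraries. On the other side Zscan20, which codes for a zinc finger protein, lies 15.9 kb away and was covered by at least 50% in 5 libraries, N18 KO and 3A6 KO at 30 cycles, N18 KO at 12 cycles and both of LAP2alpha. Tlr12, which codes for a receptor of innate immunity, 47.8 kb away, and Gjb5, which codes for a connexin, 630 kb away on the other side, were each 100% covered in 4 libraries, N18 KO at 30 and 12 cycles and LAP2alpha at 30 and 12 cycles. The peak thus passed both its usual ends in N18 KO cells and in the LAP2alpha libraries.

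Csmd3 lay outside nearly all peaks of lamin A/C and LAP2alpha. It was 100% covered in 3A6 WT at 30 cycles and 0% covered in 3A6 KO at 30 cycles, in both genotypes with 3A6 at 12 cycles and in all 4 N18 libraries. LAP2alpha peaks covered none of it at 30 or 12 cycles. Lamin B1 peaks covered 100% of it at 30 cycles and 2.54% at 12 cycles. Where Csmd3 was uncovered by lamin A/C, the nearest peak lay 3.21 Mb away in N18 WT at 30 cycles and 10.1 to 25.1 Mb away in the other 6 lamin A/C libraries, so the gene was far from any border. The peaks of 3A6 WT and of lamin B1 at 30 cycles began at the same position, 44671001, and ended at 49874000 and 50028000. They measured 5.20 and 5.36 Mb and held 4 genes each. In lamin B1 at 12 cycles the peak began at 44814001 and ended at 47443000, 1180.61 kb from the start site of Csmd3, so that the last 30.818 kb of the gene were covered and the rest was not.

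Islands of Csmd3 were also most extensive with lamin B1, and here they were graded where the peaks were not. Islands filled 93.8% of Csmd3 in lamin B1 at 30 cycles and 69.1% at 12 cycles, although the peak at 12 cycles stopped short. With 3A6 at 30 cycles they filled 37.7% in KO cells and 68.4% in WT cells, and with 3A6 at 12 cycles 25.8% in KO cells and 0.66% in WT cells. With N18 at 30 cycles the gene was listed at 0 in KO cells and filled by 13.0% in WT cells, and with N18 at 12 cycles by 3.63% in KO cells and 0.66% in WT cells. LAP2alpha islands filled 0.233% at 30 cycles and were listed at 0 at 12 cycles. With 3A6 the KO value was thus the lower one at 30 cycles and the higher one at 12 cycles. The loss at 30 cycles was unequal along the gene. Cut at its midpoint, in the 5′ part of Csmd3 islands filled 8.42% in 3A6 KO and 63.7% in 3A6 WT at 30 cycles, and in the 3′ part 67.0% in 3A6 KO and 73.1% in 3A6 WT. Both parts had almost the same G+C content, 35.3% and 35.1%.

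The chromosome around Csmd3 moved the same way with 3A6 at 30 cycles, and in other comparisons it did not. EDD peaks covered 3.82% of chromosome 15 in 3A6 KO and 27.4% in 3A6 WT at 30 cycles, and islands covered 15.9% in 3A6 KO and 29.4% in 3A6 WT. With N18 at 30 cycles islands covered 33.0% of the chromosome in KO and 29.0% in WT, while those of Csmd3 were lower in KO, and with 3A6 at 12 cycles they covered 25.8% in KO and 26.4% in WT, while those of Csmd3 were higher in KO. The part of the chromosome in the values of Csmd3 was not tested. The neighbours on its 3′ side, 4930548G14Rik at 955 kb and the potassium channel subunit gene Kcnv1 at 2466 kb, were each 100% covered in 3A6 WT at 30 cycles and in lamin B1 at 30 and 12 cycles and in no other library. On the 5′ side Trps1, which codes for a GATA-type repressor, at 1863 kb, and Eif3h, which codes for a subunit of a translation initiation factor, at 2994 kb, were listed at 0 in all 12 libraries.

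Set side by side, KO and WT libraries differed by at least 25 percentage points of EDD coverage for 2 members with 3A6 at 30 cycles, for 1 member with either antibody at 12 cycles and for none with N18 at 30 cycles. With 3A6 at 30 cycles Csmd1 was higher in KO by 63.8 points, where 9.17% of all genes were higher by 25 points or more, and Csmd3 was lower in KO by 100 points, where 5.92% of all genes were lower. With N18 at 12 cycles Csmd1 was higher in KO by 100 points, where 7.82% of all genes were higher and 12.1% lower. With 3A6 at 12 cycles Csmd1 was again higher by 100 points, where 5.15% were higher and 15.7% lower. Over all genes, Csmd1 was on the side with fewer genes in both 12-cycle comparisons. Among the 197 other genes of at least 500 kb it was on the side with more. Of these long genes 17 were higher and 5 lower with N18 at 12 cycles, and 26 higher and 13 lower with 3A6. At 30 cycles with 3A6, 22 of them were higher and 52 lower. With N18 at 30 cycles no member passed, where 24.8% of all genes were higher and 1.9% lower in KO. There Csmd1 and Csmd2 were at 100% in WT cells already and could not be higher in KO. Csmd2 with 3A6 at 30 cycles lay just under the threshold at +24.0 points, and it passed at +80.4 points when the coding span alone was measured and at +100 points when only peaks scoring above the library median were kept.

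For islands the same threshold was passed with 3A6 alone. At 30 cycles Csmd1 was higher in KO by 33.1 points, where 5.12% of all genes were higher, and Csmd3 was lower by 30.7 points (a difference of -30.7), where 4.93% were lower. At 12 cycles Csmd3 was higher in KO by 25.1 points, just over the threshold, where 5.1% of all genes were higher and 12.9% lower. With N18 no member passed, where 13.3% of all genes were higher and 6.14% lower at 30 cycles and 9.96% higher and 10.5% lower at 12 cycles. The value of Csmd1 with N18 nearest to the threshold was -20.6 points at 30 cycles. For the 4 genotype comparisons the antibodies of a genotype shared their input, so these values are not independent of each other.

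**Figure D4:**
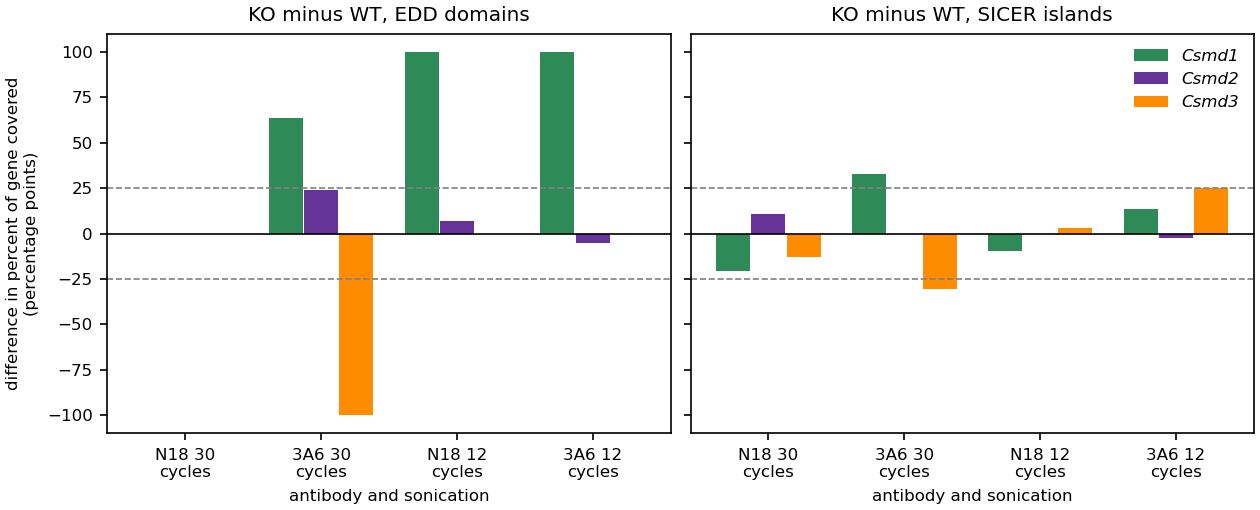
Difference KO minus WT in the percent of each Csmd gene inside EDD peaks (left) and SICER islands (right), in percentage points, for the 4 lamin A/C comparisons of 1 KO with 1 WT library, with dashed lines at 25 points in either direction. Csmd1 was higher in KO by 63.8 to 100 points of EDD coverage in 3 comparisons and equal in the fourth, whereas its island difference was negative with N18 and positive with 3A6.

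Between 30 and 12 cycles EDD coverage changed by at least 25 points for Csmd1 or Csmd3 in 3 comparisons of WT cells. With N18 in WT cells Csmd1 was higher at 30 cycles by 100 points, where 2.86% of all genes were higher and 24.5% lower. With 3A6 in WT cells Csmd3 was higher by 100 points and Csmd1 by 36.2 points, where 8.56% of all genes were higher and 20.3% lower, and Csmd2 was lower by less than the threshold, at -24.0 points. With lamin B1, Csmd3 was higher by 97.5 points, where 9.84% were higher and 0.635% lower. Of the 197 other genes of at least 500 kb, 27 were higher and 11 lower with N18 in WT cells. For 3A6 in WT cells 77 of them were higher and 21 lower, and for lamin B1 69 were higher and 0 lower. The calls of Csmd1 and Csmd3 were thus on the larger side among long genes. In KO cells EDD coverage of no member changed with either antibody, where 12.5% of all genes were higher and 7.04% lower with N18 and 7.55% higher and 5.68% lower with 3A6. Csmd1 was at 100% in KO cells at 12 cycles with both antibodies, so it could not be higher at 30 cycles. Csmd2, at 100% with N18 and 95.0% with 3A6, could not be higher by 25 points. With LAP2alpha EDD coverage of none changed either, where 12.4% were higher and 15.9% lower. Over the whole gene and all peaks no member was lower by 25 points at 30 cycles in any of the 6 comparisons. With 3A6 in WT cells this did not hold for Csmd2 in the coding span (-80.4 points) or in the higher-scoring peaks (-100 points), and in the higher-scoring peaks the difference of Csmd1 was 0.

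Islands of Csmd1 were more extensive at 30 cycles with lamin A/C in both genotypes. They were higher by 34.1 points in N18 KO, where 8.47% of all genes were higher, by 45.3 points in N18 WT, where 5.92% were, and by 34.8 points in 3A6 KO, where 3.77% were. In 3A6 WT the difference was 15.1 points. There Csmd3 was higher by 67.7 points, where 4.3% of all genes were. With lamin B1 the island content of Csmd1 differed by no more than 0.183 points between sonications, and with LAP2alpha it was -12.9 points. Islands filled at least 50% of Csmd1 in 5 libraries, N18 KO at 30 cycles, where 14.8% of all genes were so filled, N18 WT at 30 cycles (8.69%), 3A6 KO at 30 cycles (4.73%), lamin B1 at 30 cycles (5.21%) and lamin B1 at 12 cycles (5.03%). They filled at least 50% of Csmd3 in 3A6 WT at 30 cycles (4.44% of all genes) and in both lamin B1 libraries.

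Over the 12 EDD values the 3 members resembled each other little. The mean absolute difference was 53.2 points between Csmd1 and Csmd2, 55.1 points between Csmd1 and Csmd3 and 84.6 points between Csmd2 and Csmd3. Among genes of at least 100 kb on other chromosomes, those most like Csmd1 were Atp8a1, a phospholipid flippase gene, at 18.2 points, and the potassium channel genes Kcnn2 and Kcnmb2, both at 19.7 points, of 2301 genes compared. Among those most like Csmd2 were Sez6l at 7.28 points and Sdk2, a synaptic adhesion gene, at 7.33 points, a value that 12 genes shared, of 2252. For Csmd3, 37 of 2303 genes were tied at 0.212 points, and the first of them by name were Clvs2, Dach1 and Fgf14. The pattern of Csmd3 was thus a common one, and those of Csmd1 and Csmd2 had few counterparts. For Csmd2 this rested largely on 3A6 WT at 30 cycles, where it was 76.0% covered and Sez6l and Sdk2 were 0% covered. That value of Csmd2 was 0 among peaks scoring above the library median and 19.6% in the coding span.

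Because the members are among the longest genes, the 197 other genes of at least 500 kb were set beside them. Of these, 52.3% were covered by at least 50% in lamin B1 at 30 cycles, beside 16.8% of all genes, and 26.4% at 12 cycles, and 11.2% in LAP2alpha at 12 cycles. In 3A6 WT at 30 cycles it was 40.6% and in 3A6 KO at 30 cycles 27.4%. Csmd1 and Csmd3 were on the side of the majority in lamin B1 at 30 cycles, and Csmd2 was not. The long genes in lamin B1 peaks at 30 cycles, with all 200 counted, had a median G+C content of 38.3% against 41.7% in those outside. Those in LAP2alpha peaks at 12 cycles had 45.0% against 39.2% outside, and those in N18 WT peaks at 12 cycles 45.0% against 39.2%. The G+C content of Csmd2, 48.0%, lay on the LAP2alpha side of these medians and that of Csmd3, 35.2%, on the lamin B1 side. Csmd1, at 40.3%, was in lamin B1 peaks at both sonications although it lay nearer the median of the genes outside at both, the medians at 12 cycles being 38.8% inside and 40.2% outside. Csmd3 had the lower G+C content, yet lamin B1 peaks of 12 cycles covered 2.54% of it. These are descriptions of the same genes in libraries that share inputs, and no correlation was computed.

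The complement system and the other genes built from CUB and sushi repeats were described as lists. Of 20 other CUB and sushi domain genes, 1 to 7 were covered by at least 50% per library, with the highest count in LAP2alpha at 12 cycles (35% of the list beside 35.9% of all genes), and the median coverage was 0 in every library, as it was over all genes. Of 12 complement regulators 1 to 4 were covered, 4 of them (33.3% of the list) in LAP2alpha at 30 cycles, beside 32.3% of all genes, and 1 (8.33%) in 3A6 KO and in 3A6 WT at 30 cycles, beside 12.6% and 9.4%. Of 20 complement components 0 to 11 were covered, with 0 in lamin B1 at 12 cycles, beside 7.78% of all genes. The highest component count, 11 or 55% of the list, came from N18 KO at 30 cycles, where 28.5% of all genes were covered, and 3 were covered in N18 WT at 30 cycles. In that comparison 10 components were higher in KO by 25 points or more, beside 24.8% of all genes, and 1 was lower, and with 3A6 at 30 cycles 2 were higher and 2 lower, beside 9.17% and 5.92% of all genes. Genes inside the same peak were counted singly, and the N18 KO peak of 30 cycles over Csmd2 held 360 genes. How many list genes shared a peak was not examined, so these counts are not of independent genes.

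Single genes of these lists shared parts of the Csmd patterns. Sez6l, a seizure-related gene expressed in neurons that carries CUB and sushi repeats, was covered by at least 50% in 9 libraries, 7 of lamin A/C and both of LAP2alpha, and in none of lamin B1. It was 100% covered in KO cells and 0% covered in WT cells with 3A6 at 30 cycles. The regulator gene Cd55, which codes for decay-accelerating factor, was 100% covered in 11 libraries and 0% covered in N18 KO at 30 cycles, so that it lay in peaks of both LAP2alpha and lamin B1. C4bp, which codes for the C4b-binding protein, was covered in 8 libraries. Of the genes for the membrane attack complex, C8b was covered in 8 libraries, C8a in 7 and C8g in 6. C6, of the same complex and on chromosome 15 like Csmd3, was lower in KO with both antibodies at 30 cycles. With N18 it was 0% covered in KO cells and 90.0% covered in WT cells, and with 3A6 0% covered in KO cells and 100% covered in WT cells.

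Other list members changed with both antibodies at 1 sonication. Susd2, a sushi domain gene, was 100% covered in KO cells and 0% covered in WT cells with N18 and with 3A6 at 30 cycles. Susd4, a sushi domain gene described as a complement inhibitor, and Pcolce, which codes for a CUB protein that enhances procollagen processing, were 0% covered in KO cells and 100% covered in WT cells with both antibodies at 12 cycles. C8a changed with both antibodies at 12 cycles in opposite directions, at 100% in KO cells and 0% in WT cells with N18 and at 37.4% in KO cells and 100% in WT cells with 3A6. In EDD coverage Csmd1 was higher in KO with both antibodies at 12 cycles, the opposite direction to Susd4 and Pcolce, whereas in islands it was lower in KO with N18.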

How the data were processed

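Chromatin of immortalized murine dermal fibroblasts was analysed by ChIP-seq. Per the submitters' processing notes and the study's methods, the authors used cutadapt for trimming, Bowtie2 2.1.0 for alignment to mm9 (mapping quality of at least 20) and Picard for removal of duplicates and for down-sampling of each ChIP to its input, against which regions were called per library. The deposited SICER 1.1 lists (window 1000 bp, gap 3000 bp, FDR 0.01) hold counts, the reads in each island, not divided by depth or input. The deposited EDD lists (bin 11 kb, gap penalty 5, FDR 0.1) hold a score per domain. Longer fragments remained after 12 cycles and may be lost at size selection before sequencing, which bears on every value at 12 cycles.

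Genes were taken from GENCODE M1, 1 record (the longest) per symbol, 22208 on 20 chromosomes, and overlaps were computed per bp with Python 3.11.15, numpy 2.4.6, pandas 2.3.3 and pysam 0.24.0, tested on simulated data. A gene counted as covered at 50% of its length and as changed at 25 percentage points. With 1 library per group there is no test. The depth was judged here from the reads within islands alone, and the read numbers that the study lists per sample were not used. Depth sets which regions a caller can find, and an interval for this is not given. Positions count from 1.

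Named were the 3 members, the 2 nearest genes on each side, list genes covered in at least 6 libraries or changed with both antibodies, and the 3 most alike genes of at least 100 kb. The gene inside Csmd2 was added afterwards. 1 gene that this rule names is not reported here. Members, lists and rules were chosen with earlier results of these data known. Alternatives were islands for peaks, higher-scoring or longer peaks, other gene spans, thresholds and edge tolerances. The authors' log-ratio tracks, inputs and histone marks were not used here.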

Additional observations from a re-analysis of the deposited data

Results flagged for a closer look

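In 3 cases the effect of the same contrast had opposite signs in 2 settings, with 1 library on each side, and the difference between the settings was not tested. EDD coverage of Csmd2 with 3A6 differed between KO and WT by +24.0 points at 30 cycles and by -4.98 points at 12 cycles. The same 4 libraries give +4.98 points for 30 minus 12 cycles in KO cells and -24.0 points in WT cells. Island coverage of Csmd3 with N18 differed between KO and WT by -13.0 points at 30 cycles and by +2.97 points at 12 cycles, and between 30 and 12 cycles by -3.63 points in KO and +12.3 points in WT cells. Island coverage of Csmd3 with 3A6 differed between KO and WT by -30.7 points at 30 cycles and by +25.1 points at 12 cycles.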

How the results depend on the processing

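No paired analysis was possible because each group has 1 library. The counts of members changed and of libraries covering 50% of a member stayed within 1.5 times under peaks of at least 500 kb, peaks scoring above the library median, the coding span and 100-kb flanks (13 of 13 results each), under a threshold of 10 points (10 of 10), and under any overlap or the start site (3 of 3 each). With SICER islands in place of EDD peaks 6 of 13 moved: members changed between genotypes with N18 at 12 cycles, 0 in place of 1, members changed with sonication, 1 in place of 0 for N18 KO and for 3A6 KO, 1 in place of 2 for 3A6 WT and 0 in place of 1 for lamin B1, and libraries covering Csmd2, 0 in place of 10. The difference of Csmd1 between KO and WT with N18 at 12 cycles was -9.34 points with islands and +100 points with peaks, a reversal. Within 1.5 times the members called could still differ. Islands in place of peaks left the genotype count of 3A6 at 12 cycles at 1. The member was Csmd3 (+25.1 points) in place of Csmd1, whose difference was +13.4 points with islands and +100 points with peaks. With 3A6 at 30 cycles 3 members in place of 2 changed between genotypes in the coding span and among peaks above the median score, as Csmd2 was added at +80.4 and +100 points. With sonication in 3A6 WT the same settings gave Csmd2 -80.4 and -100 points, so that 3 members changed in the coding span, and among higher-scoring peaks 2 changed, Csmd2 in place of Csmd1, whose difference was 0. At 50 points 1 member changed with sonication in 3A6 WT in place of 2. Edges of Csmd1 shared by a pair of libraries numbered 6 within 11 kb and 1 when exactly equal, and those of Csmd2 numbered 10 within 11 kb, 18 within 55 kb and 4 when equal. A wider or narrower tolerance or threshold admits more or fewer by construction, and for the islands the cause was not tested.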
